A study of Mus musculus with 29 samples.

Results

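The genes described here are those of the CD3 complex and of proximal T cell receptor (TCR) signalling. They were 9 rows of the count table taken by symbol: Cd3d, Cd3e, Cd3g, Cd247, Lck, Zap70, Lat, Themis and Sh2d2a. The table listed 24421 genes, of which 20929 had at least 1 count in the 29 RNA-seq libraries, and all 9 genes passed the filter on low counts in every comparison. The libraries came from 29 mice in 7 groups, 1 library per mouse. Female C57BL/6 J mice, 5 to 6 weeks old at the start, received YTN16 cells, a mouse gastric cancer cell line, by intraperitoneal (IP) injection on day 0, which gives peritoneal dissemination. All mice carried these cells, including those called untreated, which were given PBS. Immune checkpoint inhibitors (ICI) were injected IP, anti-PD1 at 10 mg/kg and anti-CTLA4 at 5 mg/kg. At week 3 (day 21), 5 untreated mice and 5 mice given both antibodies (dual ICI) were analysed after injections on days 5, 8 and 12. At week 5 (day 35), after the same injections and further ones on days 21 and 28, there were 5 untreated, 5 anti-PD1, 4 anti-CTLA4 and 5 dual ICI mice. The labels of the libraries give no outcome. By the mouse numbers in the study's text, matched to the numbers in the sample titles, dual ICI mice 1 and 5 were uncured and mice 2, 3 and 4 were cured.

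The TCR chains that bind peptide on MHC molecules have no signalling tails of their own. The signal passes through the CD3 chains encoded by Cd3d, Cd3e, Cd3g and Cd247 (the zeta chain), whose tails are phosphorylated by the kinase LCK. The kinase ZAP70 docks on these phosphorylated tails and then phosphorylates the adaptor LAT, on which downstream enzymes assemble. THEMIS is an adaptor known from thymocyte selection, and SH2D2A (also called TSAd) is an adaptor that binds LCK. In tumor tissue these transcripts come mainly from infiltrating T cells, but NK cells also use Cd247, Zap70, Lck and Lat, and mast cells and platelets also use Lat. In bulk tissue, fewer T cells and less RNA of a gene per T cell cannot be told apart.

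Library totals ranged from 25989217 to 31219650 counts. The labels call the material tumor tissue, whereas the study's methods describe peritoneum stripped with or without nodules. Genes of gastric epithelium (13 genes), a marker of the YTN16 cells, took between 0.0791% and 0.520% of the counts in 25 libraries. They took between 0.00146% and 0.00680% in the other 4, which were the 3 cured mice and anti-PD1 mouse 5. Skeletal muscle genes (18 genes) took 22.5% to 24.2% of the counts in the cured mice and 22.3% in anti-PD1 mouse 5. Untreated mouse 2 at week 5 stood apart from its group in the same way, with 21.6% skeletal muscle and 0.0914% gastric epithelium. The study's text counts 1 cured mouse in the anti-PD1 group without a number, so that mouse stayed in its group. The week and the sequencing series of the libraries cannot be told apart.

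Cd3d, Cd3e and Cd3g lie side by side on chromosome 9 of GRCm38 (GENCODE vM21). Cd3g (44969572 to 44980431, minus strand) and Cd3d (44981786 to 44987339, plus strand) point away from each other, with 1354 bases between their annotated starts, and Cd3e (44998740 to 45009627, minus strand) follows. Cd247 lies on chromosome 1 (165788681 to 165877277, plus strand), as does Zap70 (36761798 to 36782818, plus strand). Lck lies on chromosome 4 (129548344 to 129573641, minus strand), Lat on chromosome 7 (126363824 to 126369570, minus strand), Themis on chromosome 10 (28668360 to 28883818, plus strand) and Sh2d2a on chromosome 3 (87846755 to 87855722, plus strand). Exons of Pou2f1 on the opposite strand covered 3007 bases of the exons of Cd247, which is 56.4% of their summed length. Whether the authors counted by strand is not stated, so reads of Pou2f1 and Cd247 in that stretch could not be told apart and the count of Cd247 is uncertain. Pou2f1 itself had 13.5 ± 1.20 CPM (SD, n = 5) in untreated and 16.0 ± 4.09 CPM (SD, n = 5) in dual ICI mice at week 3, and it had 14.7 ± 3.25 CPM (SD, n = 5) in untreated mice at week 5. The uncured mice had 18.7 ± 1.94 CPM (SD, n = 2) of it, and the cured mice 15.0 ± 2.09 CPM (SD, n = 3). Its share in the counts of Cd247 was not tested.

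The 250 bases before the start annotated by RefSeq are shown for the 4 CD3 chain genes, because Cd3d, Cd3e and Cd3g were called lower in the cured mice of week 5 and Cd247 was not. The sequences are from RefSeq on GRCm38.p6 and are written 5′ to 3′ on the strand of the gene. Capitals mark AGGAAGT (a core bound by ETS factors) and CAGGTG (an E-box) on either strand, and no capitals of one overlap those of the other in these sequences.
Cd3d: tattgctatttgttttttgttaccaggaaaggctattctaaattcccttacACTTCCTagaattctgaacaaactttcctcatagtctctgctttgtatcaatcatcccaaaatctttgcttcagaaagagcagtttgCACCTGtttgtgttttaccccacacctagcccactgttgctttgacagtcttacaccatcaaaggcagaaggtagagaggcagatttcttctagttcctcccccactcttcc
Cd3g: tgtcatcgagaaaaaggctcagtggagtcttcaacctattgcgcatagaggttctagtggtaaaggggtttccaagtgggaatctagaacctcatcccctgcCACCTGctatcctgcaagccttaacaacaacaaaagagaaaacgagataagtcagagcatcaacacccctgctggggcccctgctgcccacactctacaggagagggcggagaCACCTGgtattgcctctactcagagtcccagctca
Cd3e: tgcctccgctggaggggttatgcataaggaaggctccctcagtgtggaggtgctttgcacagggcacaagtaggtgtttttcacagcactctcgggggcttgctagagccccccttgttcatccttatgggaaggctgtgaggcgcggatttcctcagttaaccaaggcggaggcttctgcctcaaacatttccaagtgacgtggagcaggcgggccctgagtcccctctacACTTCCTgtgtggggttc
Cd247: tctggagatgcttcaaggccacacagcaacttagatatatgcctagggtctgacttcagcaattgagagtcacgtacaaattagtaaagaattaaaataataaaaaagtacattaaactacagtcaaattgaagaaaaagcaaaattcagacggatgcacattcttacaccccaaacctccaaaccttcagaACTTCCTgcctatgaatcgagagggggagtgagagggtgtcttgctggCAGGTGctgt
These windows are chr9:44981536-44981785 (plus strand) for Cd3d, chr9:44980432-44980681 (minus strand) for Cd3g, chr9:45009612-45009861 (minus strand) for Cd3e and chr1:165788431-165788680 (plus strand) for Cd247. The table of promoters held 8 of the 9 genes, in 12 windows, and no entry for Sh2d2a. AGGAAGT was present before a start of Cd3d, Cd3e, Cd247 and Lck, 4 of the 8 genes, and in 7.69% of all 32851 windows of the same length. CAGGTG was present before 5 of the 8 (Cd3d, Cd3g, Cd247, Lck and Zap70) and in 17.2% of all windows. TGTGGT was present before 2 (Lck and Zap70) and in 14.05% of all windows, and AGATAA before 1 (Cd3g) and in 9.99%. The 4 motifs were chosen after these sequences had been seen, and genes with several starts had several windows.

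The 9 transcripts were sparse. The lowest count of a member in a library was 6 (Themis) and the highest 488 (Lck). Levels are given as CPM, the count of a gene per 1000000 counts, on library sizes scaled by TMM over all 29 libraries. Scaled further to the length of the exons, the median over the 29 libraries was 1.71 CPM per kb for Lck, 0.972 for Zap70, 0.900 for Lat, 0.856 for Cd3d, 0.697 for Cd3g and 0.619 for Cd3e. It was 0.484 for Sh2d2a, 0.474 for Cd247 and 0.0650 CPM per kb for Themis, whose exons were the longest with 11682 bases. The value of Cd247 used all its exon bases, also those shared with Pou2f1, so its place in this order is uncertain.

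Across the 7 groups, the order of the mean levels had the same ends for most members. Dual ICI mice at week 3 had the highest mean for 7 of the 9 genes and uncured dual ICI mice at week 5 for the other 2 (Cd3d and Sh2d2a). These 2 groups overlapped in every member except Cd247. Cured mice had the lowest mean for 7 genes, and untreated mice at week 3 for Cd247 and Zap70. The sum of the CPM of the 9 genes was 19.3 ± 5.43 (SD, n = 5) in untreated and 48.8 ± 10.9 (SD, n = 5) in dual ICI mice at week 3. At week 5 the untreated mice had a sum of 23.1 ± 4.90 (SD, n = 5). The anti-PD1 mice followed with 19.2 ± 5.88 (SD, n = 5), and the anti-CTLA4 mice reached 25.3 ± 3.86 (SD, n = 4). It was 44.0 ± 0.560 (SD, n = 2) in uncured and 13.1 ± 2.19 (SD, n = 3) in cured dual ICI mice. The untreated, anti-PD1 and anti-CTLA4 groups of week 5 overlapped one another in every member.

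**Figure D1:**
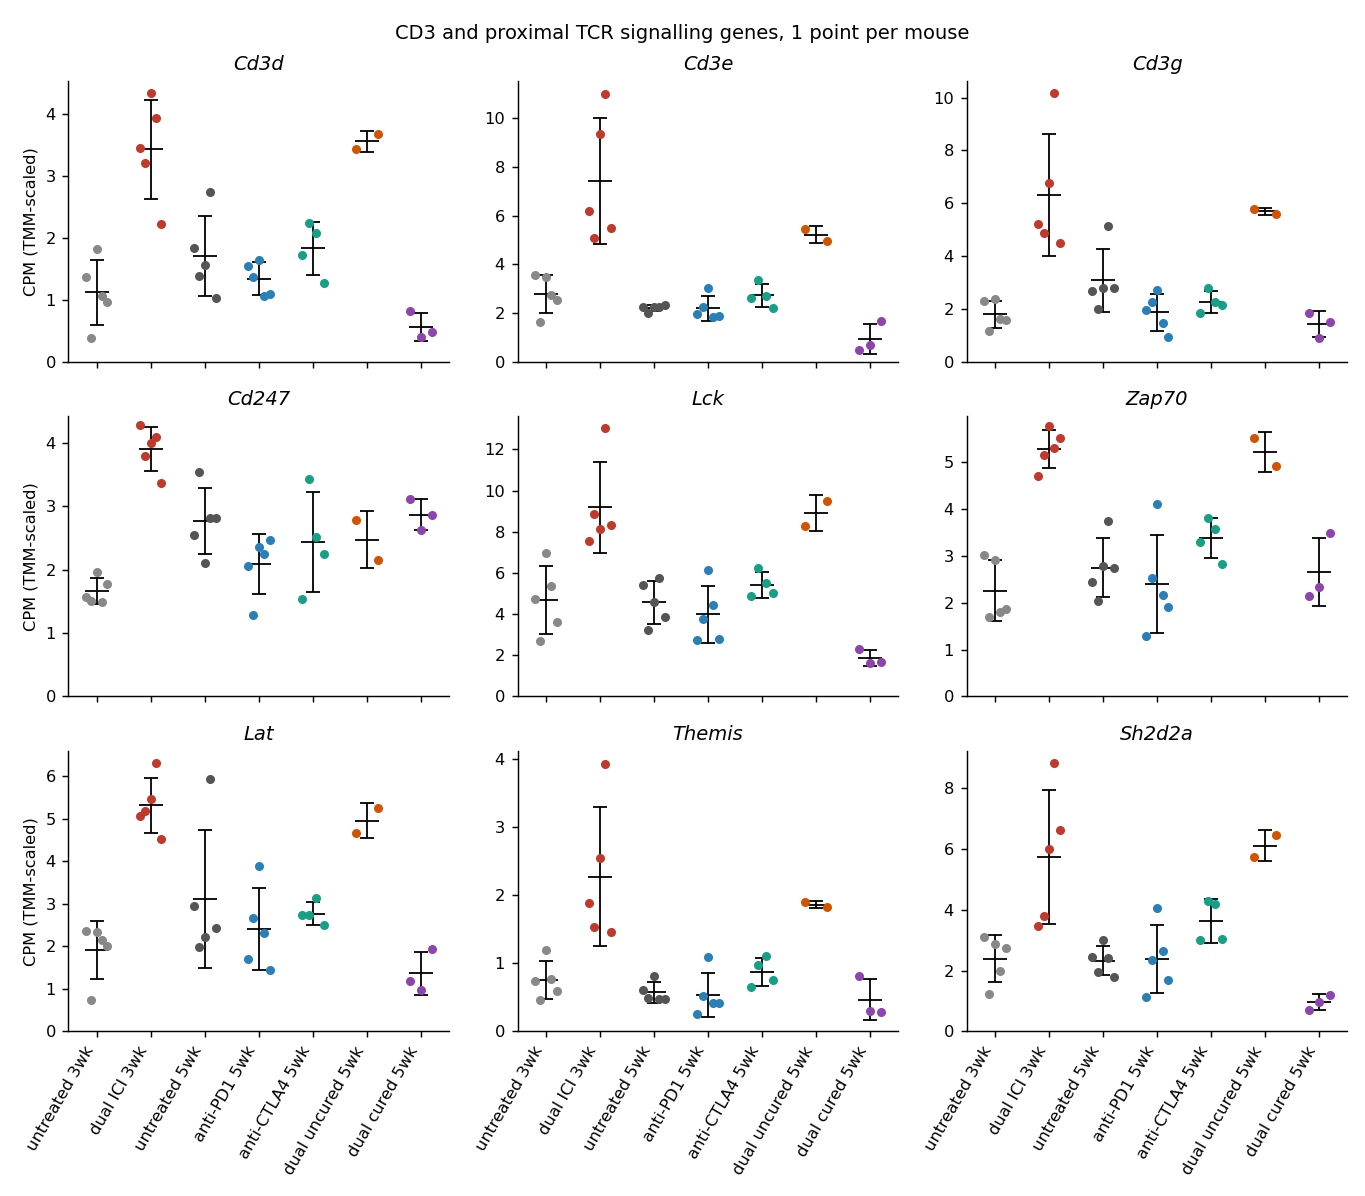
CPM on TMM-scaled library sizes (vertical axes, each starting at 0) of the 9 genes in the 7 groups (horizontal axis). Each point is 1 mouse, the dash is the group mean and the bars are ± SD. The dual ICI mice at week 3 lie above the untreated mice of that week in all 9 panels, and in the panels of Cd247 (2.63 to 3.12 CPM) and Zap70 (2.15 to 3.49 CPM) the cured mice overlap the untreated mice of week 5.

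At week 3, transcripts of the CD3 complex and of its kinases and adaptors were more abundant in dual ICI than in untreated mice. The 9 fitted differences ran from 1.98-fold (Lck) to 3.53-fold (Cd3g), and for each of the 9 every dual ICI mouse lay above every untreated mouse. Of the 15503 genes tested, 1.83% were higher in every dual ICI mouse. With edgeR, 4 of the 9 passed an adjusted p of 0.05 (Cd3g, Cd247, Zap70 and Lat), against 0.574% of all genes. DESeq2 called all 9, beside 502 of the 19991 genes it tested. The number of calls rested on single mice, among all genes as among the members. Without untreated mouse 1 or untreated mouse 5, 0 of the 9 were called by edgeR, and the calls over all genes fell from 89 to 13 and 6. Without untreated mouse 4 or dual ICI mouse 3, Cd247 was the 1 member called (23 and 16 of all genes). Without dual ICI mouse 5, Cd3g and Cd247 were the 2 members called (30 of all genes). The 9 log2 fold changes stayed above 0 in each of these fits.

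Of the CD3 chains, Cd3g had 2.28, 1.16, 2.36, 1.62 and 1.56 CPM in untreated mice 1 to 5 and 5.23, 4.88, 6.75, 10.2 and 4.49 CPM in dual ICI mice 1 to 5. The lowest dual ICI mouse stood well above the highest untreated mouse, and dual ICI mouse 4 stood above its own group. The change was 3.53-fold (log2 fold change 1.82 ± 0.28 SE, edgeR adjusted p = 0.0222). Cd247, the zeta chain, had 1.58, 1.51, 1.96, 1.49 and 1.78 CPM in untreated and 4.28, 3.80, 4.00, 4.09 and 3.37 CPM in dual ICI mice. Both groups were tight for this gene, and the difference of 2.35-fold (log2 fold change 1.23 ± 0.16 SE) had the lowest adjusted p of the members (edgeR, 0.0120). Cd3e had 3.54, 1.63, 3.45, 2.73 and 2.52 CPM in untreated and 6.17, 5.07, 9.33, 11.0 and 5.51 CPM in dual ICI mice. Its spread among dual ICI mice was wide, and the difference of 2.69-fold (log2 fold change 1.43 ± 0.28 SE) did not pass (edgeR adjusted p = 0.0530). Cd3d was between 0.387 and 1.82 CPM in untreated and between 2.23 and 4.33 CPM in dual ICI mice (3.07-fold, log2 fold change 1.62 ± 0.34 SE, edgeR adjusted p = 0.0626).

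Of the kinases, Zap70 had 3.01, 1.70, 2.91, 1.80 and 1.86 CPM in untreated and 4.69, 5.14, 5.76, 5.29 and 5.51 CPM in dual ICI mice. The dual ICI mice differed little from each other, and the level rose 2.35-fold (log2 fold change 1.23 ± 0.21 SE, edgeR adjusted p = 0.0275). Lck, the most abundant member per length, had 4.73, 2.71, 6.98, 5.34 and 3.64 CPM in untreated and 7.53, 8.87, 8.14, 13.0 and 8.34 CPM in dual ICI mice. The groups nearly met, and the difference of 1.98-fold did not pass (log2 fold change 0.98 ± 0.25 SE, edgeR adjusted p = 0.133).

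Of the adaptors, Lat had 2.35, 0.736, 2.33, 2.14 and 2.00 CPM in untreated and 5.06, 5.18, 5.46, 6.31 and 4.52 CPM in dual ICI mice. Untreated mouse 2 was low and the dual ICI mice were close together, and Lat rose 2.78-fold (log2 fold change 1.48 ± 0.27 SE, edgeR adjusted p = 0.0418). Themis was between 0.465 and 1.20 CPM in untreated and between 1.46 and 3.93 CPM in dual ICI mice (log2 fold change 1.6 ± 0.35 SE, edgeR adjusted p = 0.0717). Sh2d2a was between 1.24 and 3.12 CPM in untreated and between 3.46 and 8.82 CPM in dual ICI mice (log2 fold change 1.27 ± 0.32 SE, edgeR adjusted p = 0.121). Neither passed with edgeR, and both did with DESeq2. Dual ICI mouse 4 was the highest mouse for Themis and Sh2d2a, as it was for Cd3e, Cd3g, Lck and Lat.

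Lists of other cells were summed in the same mice of week 3. The summed CPM of 6 pan-leukocyte genes (among them Ptprc, Laptm5 and Coro1a) was between 359.9 and 447 in untreated and between 434 and 679 in dual ICI mice. The macrophage list of 5 genes was free of overlap, with 702.5 to 804 CPM in untreated and 822 to 1448 CPM in dual ICI mice. Of the gamma-delta T cell list, Trdc and Tcrg-C1 were not in the table, and 2 genes (Sox13 and Blk) were. The sum of these 2 was between 15.2 and 22.4 CPM in untreated mice. In dual ICI mice it was lower but for an overlap at the edge, between 8.26 and 15.3 CPM. Cd3d reached at most 1.82 CPM in the same untreated mice, so this sum cannot be read as a level of gamma-delta T cells. The NK cell list of 7 genes summed to between 2.56 and 4.13 CPM in untreated and between 2.91 and 7.83 CPM in dual ICI mice, and its members Klra8 and Klra4 had 0 counts in all groups. The mast cell list (6 genes, 87.5 to 125 against 87.7 to 142 CPM) and the platelet list (4 genes, 28.3 to 36.7 against 24.0 to 55.9 CPM) overlapped between the groups, as did the B cell list (5 genes, 2.36 to 5.30 against 3.84 to 6.82 CPM) and the regulatory T cell list (4 genes, 19.0 to 21.7 against 17.8 to 25.6 CPM). Their part in the levels of the 9 genes was not tested.

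In the uncured dual ICI mice at week 5, 8 of the 9 genes had a fitted log2 fold change above 0 against untreated mice of that week, and Cd247 did not. The median log2 fold change of all genes was −0.0098. With edgeR 0 of the 9 passed an adjusted p of 0.05, as did 0% of the 16156 genes tested, while 7 of the 9 had an unadjusted p under 0.05 in the higher direction, against 2.74% of all genes. DESeq2 called Cd3e, Themis and Sh2d2a, beside 17 of the 19944 genes it tested. The study labelled Cd3e and Sh2d2a in a plot of dual ICI against untreated mice of week 5, so their direction in this week is not independent evidence. For 7 of the 9 both uncured mice lay above all 5 untreated mice, which held for 9.22% of all genes.

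Cd3e had 2.26, 1.99, 2.23, 2.23 and 2.32 CPM in untreated mice 1 to 5 and 5.46 and 4.96 CPM in uncured mice 1 and 5. Untreated mice barely differed from one another in this gene, and the uncured mice were 2.34-fold higher (log2 fold change 1.23 ± 0.23 SE, unadjusted p = 0.000551 and adjusted p = 0.734 with edgeR). Sh2d2a had 2.46, 1.95, 3.02, 2.43 and 1.79 CPM in untreated and 5.75 and 6.46 CPM in uncured mice (2.60-fold, log2 fold change 1.38 ± 0.27 SE, edgeR adjusted p = 0.734). Themis, the least abundant member, had 0.601, 0.488, 0.821, 0.477 and 0.470 CPM in untreated and 1.89 and 1.83 CPM in uncured mice. Its difference of 3.20-fold was the largest among the members in this comparison (log2 fold change 1.68 ± 0.35 SE, edgeR adjusted p = 0.734). Lck had 5.44, 3.25, 4.57, 5.77 and 3.85 CPM in untreated and 8.28 and 9.52 CPM in uncured mice, and Zap70 had 2.43, 2.03, 2.78, 3.74 and 2.73 against 5.52 and 4.91 CPM. The log2 fold changes of these kinases were 0.95 ± 0.27 SE and 0.92 ± 0.28 SE (edgeR adjusted p = 0.734 for both).

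The other chain genes split. Cd3d had 1.83, 1.38, 1.55, 2.74 and 1.03 CPM in untreated and 3.43 and 3.68 CPM in uncured mice (log2 fold change 1.05 ± 0.37 SE). Cd3g had 2.69, 1.99, 2.78, 5.13 and 2.79 CPM in untreated and 5.78 and 5.59 CPM in uncured mice (log2 fold change 0.88 ± 0.35 SE). Untreated mouse 4 was the highest of its group for both genes and came close to the uncured mice for Cd3g. Cd247 had 2.55, 3.54, 2.11, 2.82 and 2.82 CPM in untreated and 2.79 and 2.15 CPM in uncured mice. The groups overlapped in full for Cd247 (log2 fold change −0.18 ± 0.31 SE), and the sign was not stable, at 0.060 when raw library totals were used. Lat also overlapped, with 2.95, 1.99, 2.23, 5.93 and 2.44 CPM in untreated and 4.65 and 5.24 CPM in uncured mice (log2 fold change 0.67 ± 0.42 SE). Its overlap came from untreated mouse 4, which stood above both uncured mice.

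Some lists of other cells lay apart between these groups and others overlapped. The pan-leukocyte list summed to between 207 and 425 CPM in untreated and 458 and 532 CPM in uncured mice. The NK cell list summed to between 2.68 and 4.06 CPM in untreated and 4.78 and 7.34 CPM in uncured mice, so that both lists were free of overlap. The regulatory T cell list (14.0 to 24.1 against 22.04 and 26.6 CPM), the B cell list (1.95 to 9.79 against 7.94 and 9.40 CPM), the macrophage list (321 to 810 against 772 and 869.5 CPM) and the platelet list (19.8 to 39.1 against 27.2 and 32.9 CPM) overlapped. Their part in these differences was not tested.

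**Figure D2:**
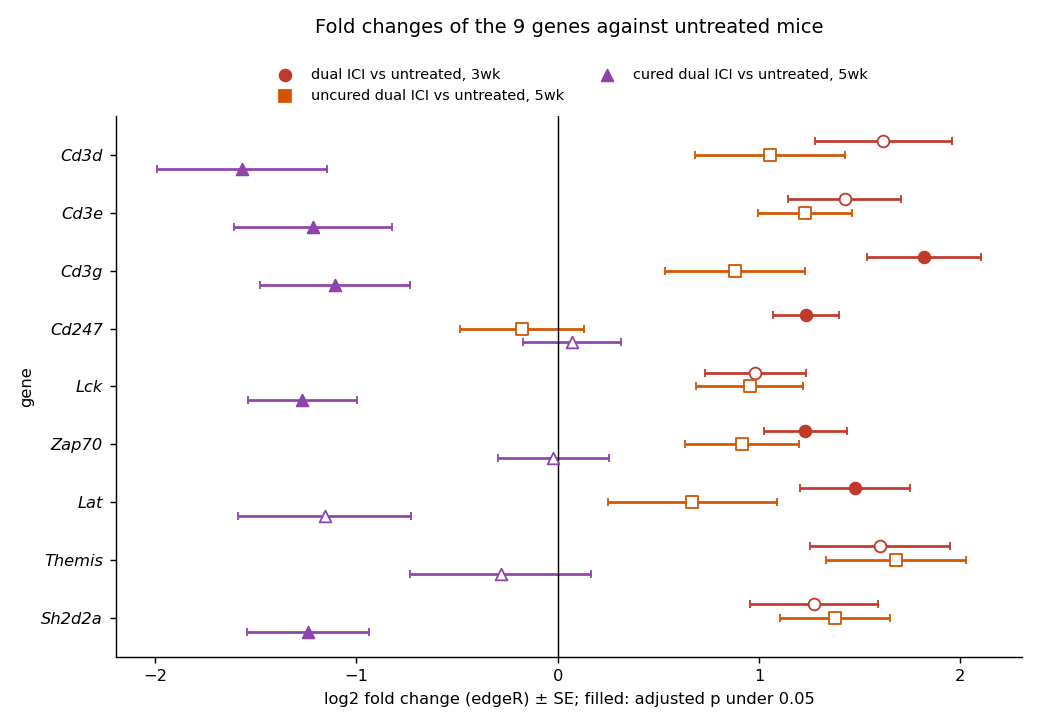
Log2 fold changes with edgeR (horizontal axis, bars ± SE) of the 9 genes (vertical axis) against untreated mice of the same week. Filled symbols have an adjusted p under 0.05, and the 2 comparisons of week 5 share their untreated mice. Cd247 is high at week 3 (1.23) and close to 0 in both comparisons of week 5 (−0.18 and 0.07).

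In the cured mice, most members were lower than in untreated mice of week 5, and Cd247 and Zap70 were not. With edgeR 5 of the 9 fell at an adjusted p of 0.05 (Cd3d, Cd3e, Cd3g, Lck and Sh2d2a), against 26.7% of the 15816 genes tested that were called lower. For 6 of the 9 the highest cured mouse lay below the lowest untreated mouse, against 26.9% of all genes. The tissue differed in bulk between these groups, as the shares of gastric epithelium and skeletal muscle above show, and the part of that difference in these values was not tested. Calls again rested on single mice. Without cured mouse 2, cured mouse 4 or any one of untreated mice 1, 3, 4 and 5, 3 of the 9 were called, without cured mouse 3, 2, and without untreated mouse 2, the muscle-rich mouse, 6. Lck and Sh2d2a were called in each of these fits. Over all genes, between 3029 and 5029 were called lower in them, against 4219 with all mice.

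Lck had 2.30, 1.61 and 1.70 CPM in cured mice 2, 3 and 4, below the 3.25 CPM of the lowest untreated mouse, and fell 2.41-fold (log2 fold change −1.27 ± 0.27 SE, edgeR adjusted p = 0.00508). Sh2d2a had 0.717, 0.974 and 1.21 CPM and fell 2.36-fold (log2 fold change −1.24 ± 0.31 SE, edgeR adjusted p = 0.01003). Both genes stood clear of the range of the untreated mice. Cd3d had 0.819, 0.390 and 0.484 CPM in the cured mice (log2 fold change −1.57 ± 0.42 SE, edgeR adjusted p = 0.0146). Cd3e had 0.461, 0.682 and 1.65 CPM (log2 fold change −1.22 ± 0.39 SE, edgeR adjusted p = 0.0306). Cd3g had 1.84, 0.877 and 1.501 CPM (log2 fold change −1.11 ± 0.37 SE, edgeR adjusted p = 0.0367). The cured mice did not share an order across these chains, since mouse 2 was highest for Cd3d and Cd3g and lowest for Cd3e. Lat had 1.18, 0.974 and 1.94 CPM and lay just outside the threshold (log2 fold change −1.16 ± 0.43 SE, edgeR adjusted p = 0.0517).

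Cd247 had 3.12, 2.63 and 2.86 CPM in the cured mice, within the range of the untreated mice (log2 fold change 0.07 ± 0.24 SE, edgeR adjusted p = 0.825). Zap70 had 2.15, 2.34 and 3.49 CPM (log2 fold change −0.02 ± 0.28 SE, edgeR adjusted p = 0.955) and Themis 0.819, 0.292 and 0.291 CPM (log2 fold change −0.28 ± 0.45 SE, edgeR adjusted p = 0.626). All 3 overlapped with the untreated mice. The scaling matters here, since raw library totals in place of TMM moved the median log2 fold change of all genes from −0.055 to −0.64 and the calls from 2848 higher and 4219 lower to 1187 higher and 7386 lower. On raw totals Cd247 had a log2 fold change of −0.48 ± 0.26 SE (edgeR adjusted p = 0.135) and Zap70 of −0.61 ± 0.34 SE (edgeR adjusted p = 0.153), both at or above the median of all genes on that scale. The NK cell list summed to between 0.581 and 0.922 CPM in the cured mice, below the 2.68 to 4.06 CPM of the untreated mice. The pan-leukocyte list (254 to 266 against 207 to 425 CPM) and the platelet list (30.1 to 41.8 against 19.8 to 39.1 CPM) overlapped. The B cell, mast cell, macrophage and regulatory T cell lists overlapped as well. The part of these cells in the levels of Cd247 and Zap70 was not tested.

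Within the dual ICI mice of week 5, the uncured mice exceeded the cured mice in 8 of the 9 genes with edgeR, against 36.9% of the 15796 genes tested that were called higher, and both uncured mice lay above all 3 cured mice in the same 8, against 43.7% of all genes. The levels are those given above. The tissue differed in bulk between these groups too, as the shares of gastric epithelium and skeletal muscle show, and the part of that difference was not tested. The differences were 6.18-fold for Cd3d (log2 fold change 2.63 ± 0.35 SE, edgeR adjusted p = 0.000167), 6.15-fold for Sh2d2a (2.62 ± 0.28 SE, edgeR adjusted p = 4.53e-05) and 5.44-fold for Cd3e (2.44 ± 0.43 SE, edgeR adjusted p = 0.000956). Lck was 4.68-fold, Cd3g 3.97-fold, Themis 3.91-fold and Lat 3.55-fold higher. Zap70 differed least among the 8, by 1.92-fold (log2 fold change 0.94 ± 0.27 SE, edgeR adjusted p = 0.0119), and lost its call without uncured mouse 1 (adjusted p = 0.0617). Cd247 did not differ by this test (log2 fold change −0.24 ± 0.26 SE, edgeR adjusted p = 0.414). Raw library totals moved the median of all genes from 0.054 to 0.84 and the calls from 5831 higher and 5232 lower to 10127 higher and 2314 lower, and the log2 fold change of Cd247 to 0.54 ± 0.25 SE (edgeR adjusted p = 0.0784).

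No member passed the test for either antibody alone at week 5. In anti-PD1 mice 0 of the 9 passed with edgeR, as did 0% of 15640 genes tested, 0 had an unadjusted p under 0.05 (1.31% of all genes), and DESeq2 called 0. The log2 fold changes lay between −0.72 ± 0.33 SE (Cd3g) and 0.03 ± 0.32 SE (Sh2d2a). Cd3g had 1.96, 2.26, 2.7, 1.45 and 0.929 CPM in anti-PD1 mice 1 to 5, of which mouse 5, the mouse without tumor markers, was the lowest. In anti-CTLA4 mice 0 of the 9 passed with edgeR, as did 0% of 15781 genes, 1 had an unadjusted p under 0.05 (0.811% of all genes), and DESeq2 called 0. That gene was Sh2d2a, with 3.00, 4.30, 4.20 and 3.04 CPM in the 4 anti-CTLA4 mice against 1.79 to 3.02 CPM in untreated mice. The groups met at their edges (log2 fold change 0.62 ± 0.23 SE, unadjusted p = 0.0210 and adjusted p = 0.9998 with edgeR). The lowest log2 fold change in anti-CTLA4 mice was that of Cd3g (−0.46 ± 0.29 SE).

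With the 5 dual ICI mice of week 5 taken as the single group that the labels give, 0 of the 9 differed from untreated mice with edgeR (0% of 15588 genes). Of the 9, 0 had an unadjusted p under 0.05 (6.87% of all genes). DESeq2 called 0 of the 9 and 46 of the 20148 genes it tested. The log2 fold changes lay between −0.15 ± 0.52 SE (Lat) and 0.85 ± 0.54 SE (Themis). In every member but Cd247, Zap70 and Themis, both uncured mice lay above and all 3 cured mice below the mean of the untreated mice.

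Between the untreated mice of the 2 weeks, 1 of the 9 differed with edgeR, against 10.8% of the 15604 genes tested. Cd247 was 1.66-fold higher at week 5 (log2 fold change 0.73 ± 0.20 SE, edgeR adjusted p = 0.0416), with every mouse of week 5 above every mouse of week 3. This call was lost without any one of 8 of the 10 mice (all 5 of week 3, and mice 1, 4 and 5 of week 5). Without mouse 2 of week 5, Cd3g passed as well, which was otherwise 1.71-fold higher (log2 fold change 0.78 ± 0.29 SE, edgeR adjusted p = 0.103). Themis had the lowest log2 fold change, −0.39 ± 0.30 SE.

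The effect of dual ICI was compared between week 3 and the uncured mice of week 5 by an interaction in edgeR. The arm of week 3 held all 5 dual ICI mice, whatever their later outcome, and that of week 5 the 2 uncured mice. Time and selection by outcome cannot be told apart in this contrast. The 2 effects for each gene stand side by side as log2 fold changes of 1.62 and 1.05 for Cd3d, 1.43 and 1.23 for Cd3e, 1.82 and 0.88 for Cd3g, and 1.23 and −0.18 for Cd247. They were 0.98 and 0.95 for Lck, 1.23 and 0.92 for Zap70, 1.48 and 0.67 for Lat, 1.6 and 1.68 for Themis, and 1.27 and 1.38 for Sh2d2a. With edgeR 0 of the 9 interactions passed (0% of 16542 genes), and 1 had an unadjusted p under 0.05 (6.35% of all genes). That gene was Cd247, with a lower value in the uncured mice of week 5 than at week 3 (interaction −1.40 ± 0.29 SE on the log2 scale, unadjusted p = 0.000188 and adjusted p = 0.707). DESeq2 called it (adjusted p = 0.0204), as the 1 gene called of the 20505 it tested. Both the higher Cd247 in untreated mice at week 5 and its level in the uncured mice enter that value.

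The members were also described relative to leukocyte genes. The measure is the log2 CPM of a member minus the mean log2 CPM of the 6 pan-leukocyte genes, in each library, and it is a description without a test. At week 3 all 9 differences between dual ICI and untreated means were above 0, from 0.31 (Lck) to 1.06 (Cd3g) with a median of 0.69, but for 0 of the 9 were the groups free of overlap. In uncured against untreated mice of week 5 the differences ran from −0.79 (Cd247) to 0.98 (Themis) with a median of 0.33. The groups were free of overlap for Lck (0.33), Themis (0.98) and Sh2d2a (0.74), all higher, and for Cd247, lower. Relative to Ptprc alone, the differences of uncured mice for Cd3g (−0.0047), Zap70 (−0.011) and Lat (−0.17) fell to the other side of 0. In cured against untreated mice they ran from −1.11 (Cd3d) to 0.43 (Cd247), and Lck (−0.88) and Sh2d2a (−0.85) were free of overlap. With Ptprc alone as the reference, every difference of the cured mice was lower. Cd247 was then at 0.034, and Zap70 at −0.082 in place of 0.32. In uncured against cured mice the differences ran from −1.23 (Cd247) to 1.59 (Sh2d2a) with a median of 1.01. Of these, 6 were higher and Cd247 was lower without overlap, while Zap70 (−0.027) and Themis (0.98) overlapped. The mean log2 CPM of the leukocyte genes was 5.72 ± 0.12 (SD, n = 5) in untreated and 6.41 ± 0.24 (SD, n = 5) in dual ICI mice at week 3, and 5.51 ± 0.39 (SD, n = 5), 6.15 ± 0.15 (SD, n = 2) and 5.14 ± 0.074 (SD, n = 3) in untreated, uncured and cured mice at week 5.

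The share of each chain gene in the summed CPM per kb of exon of Cd3d, Cd3e, Cd3g and Cd247 does not depend on the scaling of the libraries. Cd247 made up 15.5% ± 4.55 (SD, n = 5) of this sum in untreated and 12.0% ± 2.43 (SD, n = 5) in dual ICI mice at week 3. At week 5 it was 18.3% ± 5.39 (SD, n = 5) in untreated, 8.52% ± 1.38 (SD, n = 2) in uncured and 36.5% ± 5.84 (SD, n = 3) in cured mice. The cured mice (32.2% to 43.2%) lay above all other 26 mice. The next highest shares were those of untreated mouse 2 of week 5 (26.3%) and anti-PD1 mouse 5 (25.8%). Skeletal muscle genes took 21.6% and 22.3% of the counts in these mice. They took 20.15% in dual ICI mouse 1 and 17.4% in dual ICI mouse 2 of week 3, and no share of Cd247 in that group exceeded 13.8%. The part of the tissue content in these shares was not tested. In the cured mice they rest on few counts (8 to 16 for Cd3d) and on the uncertain count of Cd247. The uncured mice (7.54% and 9.49%) lay below the untreated mice of their week. The summed level itself was lowest in the cured mice, 1.51 ± 0.316 CPM per kb (SD, n = 3), while the untreated mice of week 5 reached 2.94 ± 0.694 CPM per kb (SD, n = 5). Cd3e held 31.7% ± 1.77 (SD, n = 5) in untreated mice at week 3 and 19.0% ± 3.54 (SD, n = 5) at week 5, with no overlap between these groups, and Cd3d and Cd3g each held 31.3% at week 5.

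**Figure D3:**
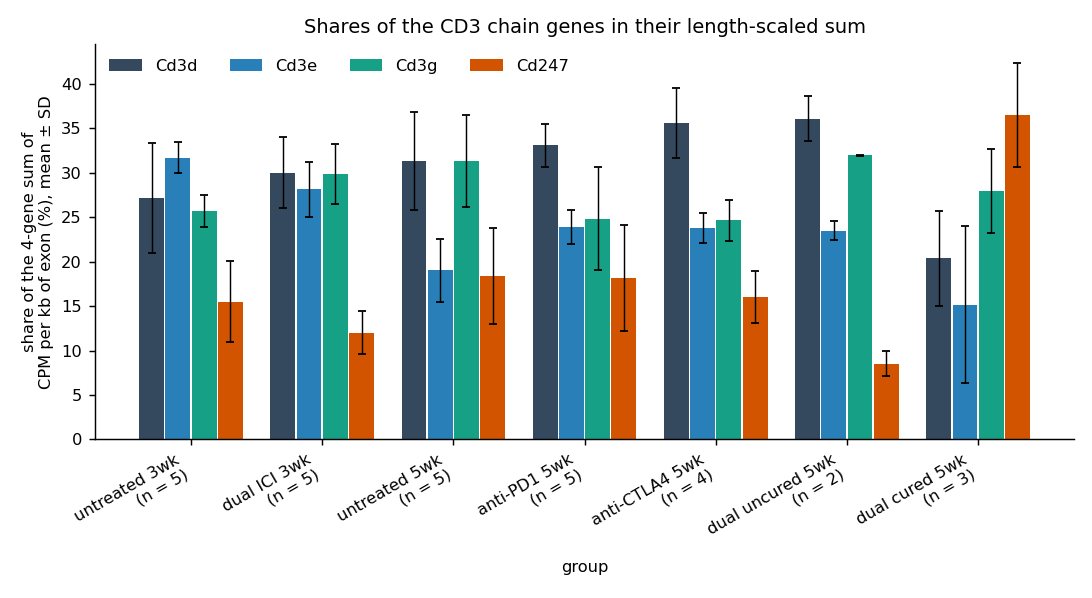
Share (vertical axis, percent) of the 4 CD3 chain genes in their summed CPM per kb of exon, for the 7 groups (horizontal axis, number of mice given). Bars are means and lines ± SD. Cd247 holds 36.5% in the cured mice and between 8.52% and 18.3% in the other groups.

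Other genes of TCR signalling were counted in 4 lists, and the list of TCR constant regions was not analysed here because the table held none of its genes under these symbols. At week 3, 2 of 9 coreceptors and accessory surface proteins rose with edgeR. These were Cd8b1 (log2 fold change 2.53 ± 0.39 SE, edgeR adjusted p = 0.0222) and Cd8a (2.31 ± 0.35 SE, edgeR adjusted p = 0.0193), which encode the 2 chains of the coreceptor of cytotoxic T cells. The median log2 fold change of this list was 0.98, against 1.43 for the 9 members and 0.024 for all genes. Of 14 other adaptors and exchange factors tested, 2 rose, Sh2d1a, the adaptor SAP of SLAM receptors (3.46 ± 0.40 SE, edgeR adjusted p = 0.00681), and Sla, an adaptor that lowers TCR levels (0.71 ± 0.13 SE, edgeR adjusted p = 0.0418), with a list median of 0.67. Sh2d1a was scarce, with 0.0639 ± 0.0160 CPM (SD, n = 5) in untreated and 0.736 ± 0.272 CPM (SD, n = 5) in dual ICI mice. None of 10 other kinases and phosphatases passed with edgeR (6 at an unadjusted p under 0.05, median 0.55) and none of 12 downstream enzymes and transcription factors (5 at an unadjusted p under 0.05, of which 1 lower, median 0.11). Over all 15503 genes tested, 1658 had an unadjusted p under 0.05, of which 934 were higher and 724 lower.

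In uncured mice at week 5, 0 of the 45 genes tested in the 4 lists passed with edgeR and 20 had an unadjusted p under 0.05, all higher, against 2.74% of all genes in that direction. The coreceptor list had the highest median, 1.29, above the 0.95 of the members, with Cd8b1 at 1.58 ± 0.30 SE and Cd8a at 1.43 ± 0.31 SE. The medians were 0.67 for kinases and phosphatases, 0.66 for adaptors and 0.26 for downstream genes. Prkcq, a protein kinase C of T cells and of muscle, was the member of its list farthest below 0 (−1.23 ± 0.59 SE). In cured mice, 17 of 44 genes tested were called lower and 5 higher, beside 26.7% of all genes called lower and 18% called higher. The lower genes included Bcl11b (−3.70 ± 0.35 SE, edgeR adjusted p = 0.000146) and Tcf7 (−2.55 ± 0.31 SE, edgeR adjusted p = 0.000288), transcription factors of the T cell lineage. Cd5 (−1.58 ± 0.42 SE, edgeR adjusted p = 0.0143) and Cd4 (−1.26 ± 0.28 SE, edgeR adjusted p = 0.00626) were lower as well. Bcl11b and Tcf7 fell farther than Cd3d, the member with the largest fall (log2 fold change −1.57 ± 0.42 SE). The gastric epithelium genes summed to between 20.1 and 97.4 CPM in cured and between 1155 and 3924 CPM in untreated mice of week 5. Which cells the RNA of Bcl11b and Tcf7 came from was not tested. The 5 higher genes were Cd28 (1.72 ± 0.36 SE), Prkcq (1.28 ± 0.45 SE), Fyn (0.92 ± 0.14 SE), Nfatc1 (0.78 ± 0.23 SE) and Nfatc2 (0.64 ± 0.21 SE). Cd28 is the costimulatory receptor of T cells, while Fyn, Prkcq and the NFAT factors are also used outside T cells. In untreated mice Cd28 was lower at week 5 than at week 3 (log2 fold change −1.54 ± 0.34 SE, edgeR adjusted p = 0.0202).

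**Figure D4:**
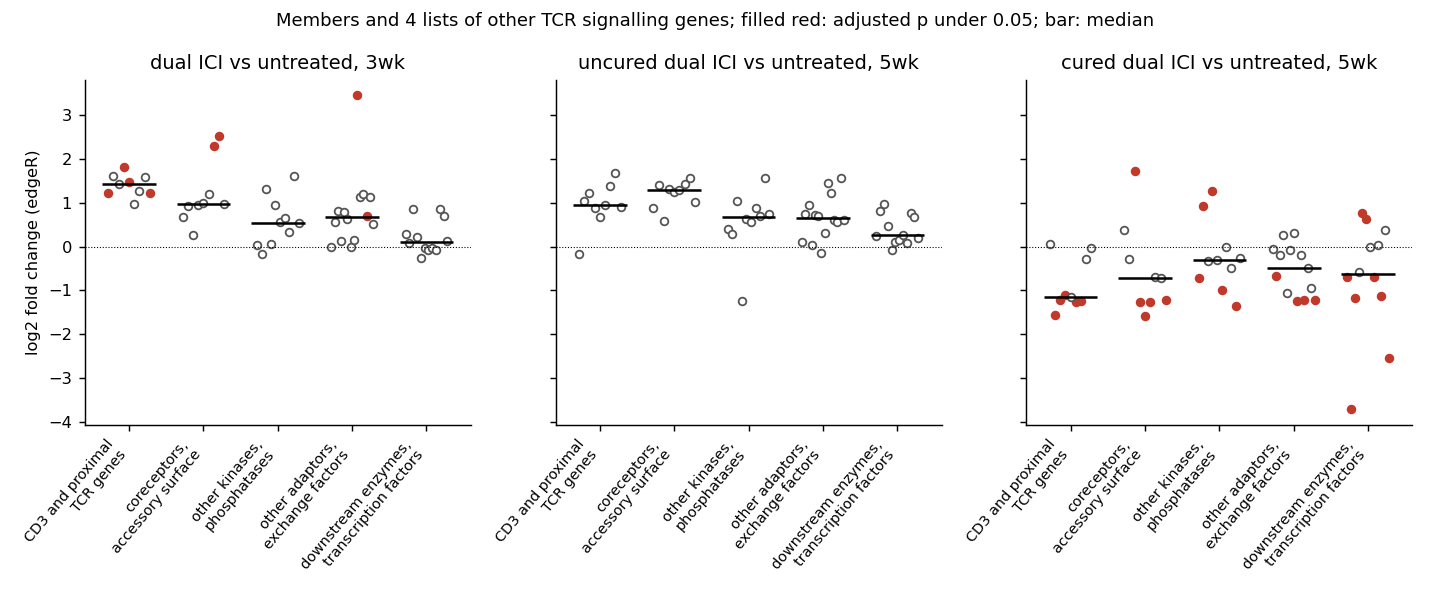
Log2 fold changes with edgeR (vertical axis) of the 9 members and of the genes of 4 lists (horizontal axis) in 3 comparisons (panels), 1 point per gene. Filled red points have an adjusted p under 0.05 and bars are medians. In cured mice the called genes lie on both sides of 0, with Bcl11b lowest at −3.70 and Cd28 highest at 1.72.

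Over the 29 libraries, 8 of the 9 members followed one another and Cd247 did so less. The Pearson correlations of their log2 CPM (prior count 2) ran from 0.72 (Cd3e with Zap70) to 0.92 (Lck with Sh2d2a) with a median of 0.82 over the 28 pairs without Cd247. Over the 8 pairs with Cd247 they ran from 0.29 (with Sh2d2a) to 0.56 (with Zap70), with a median of 0.45. The points share the groups, the tissue content and the depth of the libraries, so these values are descriptions. Among 16743 other genes, the 8 with the highest correlation to the mean standardised log2 CPM of the members were Ctsw (0.924), Ms4a4b (0.921), Cd8a (0.920), Ccl5 (0.914), Il2rb (0.912), H2-Eb2 (0.909), Cd8b1 (0.909) and Cd4 (0.907). Ctsw was 2.30 ± 0.834 CPM (SD, n = 5) in untreated and 6.91 ± 1.28 CPM (SD, n = 5) in dual ICI mice at week 3, 6.69 ± 0.164 CPM (SD, n = 2) in uncured mice and, at the low end, 1.42 ± 0.903 CPM (SD, n = 3) in cured mice. Cd4 had its highest mean in the uncured mice, 8.62 ± 0.428 CPM (SD, n = 2), whereas Cd8a had it in the dual ICI mice of week 3, 13.7 ± 6.03 CPM (SD, n = 5). The counts of H2-Eb2 and Cd8b1 may share reads with close relatives of these genes.

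**Figure D5:**
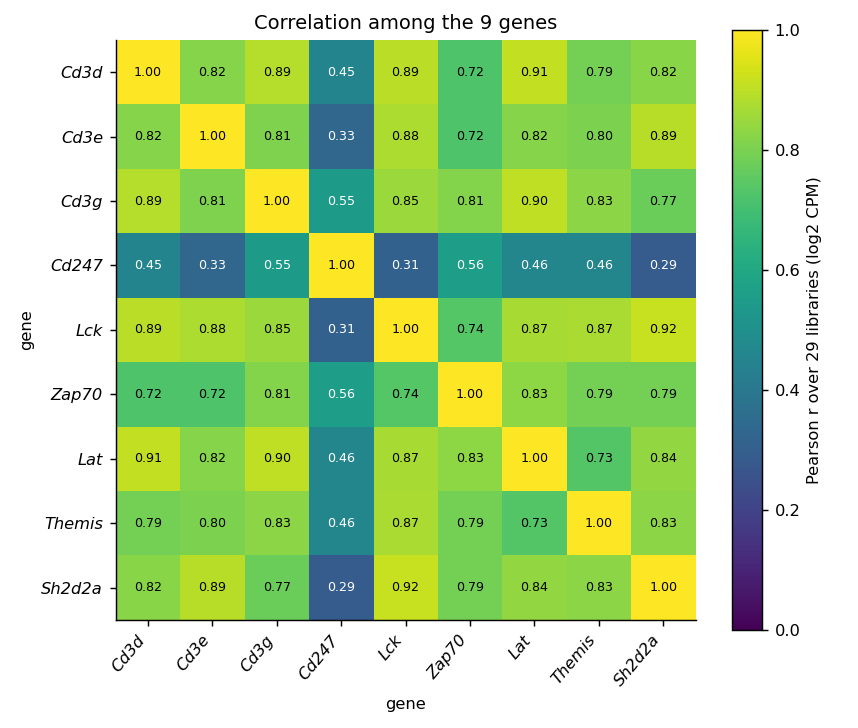
Pearson correlation of log2 CPM over the 29 libraries for each pair of the 9 genes (both axes), as colour and number. The row of Cd247 holds values from 0.29 to 0.56, and the other pairs lie between 0.72 and 0.92.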

How the data were processed

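RNA of 29 mice was sequenced by the authors as paired-end reads of 150 bp. The sources differ on the counting: the study's methods name STAR 2.5 and HTSeq 0.6 with mm10, and the submitters' processing notes name STAR 2.7.0f and featureCounts 1.6.4. The annotation and strand setting are not given in the sources used here. Per gene symbol, the authors deposited whole-number counts of reads without normalization. Totals were 25989217 to 31219650 counts per library. The 50 pairs of replicate libraries all differed by more than sampling noise (lowest chi-square per degree of freedom 13.5).

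Groups were compared with edgeR 4.0.16 (R 4.3.3): TMM scaling, the filterByExpr filter on the groups, and the quasi-likelihood test of glmQLFit and glmQLFTest. P-values were two-sided and were adjusted by Benjamini-Hochberg across every gene in the fit, with a threshold of 0.05. The groups compared alone entered each fit. SE were derived from the F statistic. The fits were tested on simulated data. P-values measure the spread between mice. The numbers of the mice were not used to pair them. CPM and log2 CPM (prior count 2) used TMM over all libraries. Exon lengths and positions were from GENCODE vM21 on GRCm38, and promoters from RefSeq on GRCm38.p6. Genes named from lists were those with the 3 largest absolute log2 fold changes or an adjusted p under 0.05 in a comparison, and 8 genes were named by correlation. Members and lists were chosen with earlier results of these data known. The alternatives were DESeq2 1.42.0, other scalings and filters, removal of muscle genes, 1 fit to all 29 libraries, a replicate block, each mouse left out, other prior counts and references, and, added after seeing the data, raw library totals in edgeR. Tables were handled with pandas 2.3.3 and figures drawn with matplotlib 3.10.9. The values of 1 gene of the lists are not reported here.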

Additional observations from a re-analysis of the deposited data

Results flagged for a closer look

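For 4 mice, 5 values stood far from the rest of their group by Dixon's test at the 95% level, in 45 groups of 4 or 5 mice tested, and chance alone gives about 1 such value in every 20 groups. Lat was low in untreated mouse 2 at week 3, with 0.736 CPM against 2.00 to 2.35 CPM in the other mice of the group. Lck was high in dual ICI mouse 4 at week 3, with 13.0 CPM against 7.53 to 8.87 CPM. Cd3e was low in untreated mouse 2 at week 5, the mouse with 21.6% skeletal muscle counts, with 1.99 CPM against 2.23 to 2.32 CPM. In untreated mouse 4 at week 5, Cd3g was high with 5.13 CPM against 1.99 to 2.79 CPM, and Lat was high with 5.93 CPM against 1.99 to 2.95 CPM.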

How the results depend on the processing

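The count of members called at week 3 was 4 with edgeR, beside 89 of all genes. It was 9 with DESeq2 (502 of all genes), 8 in a fit of all libraries (104), 7 with a replicate block (209) and 1 with raw library totals (15). With each mouse left out in turn it ran from 0 to 4, and the count over all genes from 6 to 119. In uncured mice at week 5 DESeq2 called 3 members and 17 of all genes. In cured mice the count of 5 (7067 of all genes) was 3 with the replicate block (4016) and ran from 2 to 6 with single mice left out. Between untreated mice of both weeks the count of 1 was 0 without a filter on low counts and 0 with the replicate block, and ran from 0 to 2. For the interaction DESeq2 called 1. Raw library totals turned the sign of Cd247 in uncured (0.060) and cured mice (−0.48) and in uncured against cured mice (0.54), and the replicate block that of Sh2d2a in anti-PD1 mice (−0.066). With single mice left out, the log2 fold change ran from −0.018 to 0.19 for Cd247 and from −0.26 to 0.16 for Zap70 in cured mice, from −0.25 to 0.20 for Sh2d2a in anti-PD1 mice, from −0.50 to 0.22 for Lat in all dual ICI mice of week 5 and from −0.015 to 0.33 for Sh2d2a in the interaction. The cause of these shifts was not tested. For mice with the same number, the correlations of their deviations from the group means ran from −0.65 to 0.64. Mice with different numbers were not set beside them, so these values cannot decide whether the number marks a pairing. At week 3 most dual ICI mice bore another number in their library names than in their titles, whereas the untreated mice kept theirs. A shared title number thus gave no ground for pairing mice of that week. The calls of week 3 with the replicate block are therefore not those of matched mice. No block could be made for uncured against cured mice, which share no number. Where 1 mouse remained in a group, it was assumed to vary like the others. Members with few counts limit the precision, since Themis had as few as 6 counts in a library.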
